A study of Mus musculus with 6 samples.

Results

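The genes that encode the nuclear part of the mitochondrial respiratory chain were followed in M2c-polarized macrophages from 3 sEH-/- and 3 wild-type mice. Members were the protein-coding genes whose symbol starts with *Nduf*, *Uqcr*, *Cox4* to *Cox8* or *Atp5*, or is *Sdha*, *Sdhb*, *Sdhc* or *Sdhd*. This rule found 92 of the 19309 genes in the table and used no measured value. By complex, the members were 45 genes of complex I, 4 of complex II, 8 of complex III, 18 of complex IV and 17 of complex V. The complex I genes were 7 core subunits, 30 accessory subunits and 8 assembly factors of the *Ndufaf* type. *Ndufa4* and its paralog *Ndufa4l2* were counted with complex IV, in which the *Ndufa4* protein is found. In all, 81 members were structural subunits.

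Both genotypes received the same treatment. Monocytes from the bone marrow of mice aged 8 to 10 weeks were cultured for 7 days with GM-CSF (15 ng/mL) and M-CSF (15 ng/mL), exposed to LPS (10 ng/mL) plus IFN-γ (1 ng/mL), and repolarized with TGF-β1 (10 ng/mL) on top. The series text gives 24 h for the LPS and IFN-γ step and 48 h for TGF-β1, while the methods of the study give 12 h for the former and 24 h or 48 h for the latter. The sEH-/- mice lack the soluble epoxide hydrolase gene *Ephx2* constitutively and in every tissue, and the methods describe age- and strain-matched littermates as controls and C57BL/6N as the purchased strain, whereas the labels give the genotype only.

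The respiratory chain passes electrons from NADH (through complex I) and succinate (through complex II) to ubiquinone, on to cytochrome c through complex III, and to oxygen at complex IV, and ATP synthase, complex V, uses the proton gradient that complexes I, III and IV build. Its subunits come from nuclear and from mitochondrial genes and must be assembled together, with the help of assembly factors. In macrophages, LPS and IFN-γ shift energy metabolism from respiration toward glycolysis, and succinate oxidation at complex II is a known source of inflammatory signals, while pro-resolving macrophages depend more on respiration.

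Libraries held 4400197 to 5818444 counts for sEH-/- and 4632688 to 6096440 counts for wild-type. *Ephx2* was counted 4, 2 and 1 times in the sEH-/- libraries and 26, 49 and 57 times in the wild-type libraries, so the libraries followed their labels (log2 fold change −4.05, SE 0.43, adjusted p = 0.0042, edgeR). All 8 macrophage markers were detected in every library, with a summed level of 1985 to 2457 CPM (counts normalized to library size) in sEH-/- and 1744 to 2204 CPM in wild-type. Lymphocyte markers did not exceed 0.807 CPM in sum and the erythroid markers had no row. The summed neutrophil markers, mainly *S100a8*, were at 28.2 to 31.9 CPM in sEH-/- against 17.4 to 21.2 CPM in wild-type, with the granule genes *Ngp*, *Camp* and *Elane* at 10 counts or fewer in every library. Summed dendritic cell markers were at 27.0 to 57.7 against 42.2 to 58.9 CPM, and stromal markers at 10.7 to 20.5 against 6.60 to 61.0 CPM. The part of these cells in the values below was not tested, and in such bulk libraries a change in the number of one cell type and a change in RNA per cell cannot be told apart. Since the authors removed mitochondrial reads, the table has 0 rows on the mitochondrial chromosome and the subunits encoded there were not analysed here.

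The macrophages of both genotypes expressed nearly the whole set. Of the 92 members, 90 averaged above 5 counts per library and were tested. The pair under this limit belonged to complex IV, namely *Cox4i2*, the lung-type isoform of subunit 4, with 1, 2 and 0 counts in sEH-/- and 0, 0 and 1 in wild-type, and *Ndufa4l2*, a paralog known as a hypoxia target, with 2, 1 and 1 against 3, 5 and 4 counts. Per length, the tested members had a median level of 29.7 CPM per kb of exonic sequence, compared with 10.8 CPM per kb over all 13785 tested genes. Their levels ran from 1.89 CPM per kb for *Atp5l*, a subunit of the membrane part of ATP synthase, to 104 CPM per kb for *Sdhd*, a membrane anchor of complex II. The median level was 47.1 CPM per kb in complex II, 42.9 in complex III, 29.8 in complex IV, 26.6 in complex V and 31.5 among the structural subunits of complex I, while the *Ndufaf* assembly factors had a median of 14.5 CPM per kb. The exonic length combined all annotated exons of a gene, 6443 bases for *Atp5l*. Annotated but little-used exons would lower the level per kb, and this was not tested. *Atp5l* also shares 84.8% of the 50-base stretches of its protein-coding transcripts with other annotated transcripts. The authors discarded multi-mapping reads, so its level is uncertain. At least 20% was shared in 18 tested members and 5% or less in 53. Matches on either strand were counted, so some sharing is with a gene that overlaps on the opposite strand. An example is *Atp5o* (47.6%, mainly with *D430001F17Rik*). Such sharing does not by itself make a read multi-mapping.

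**Figure D1:**
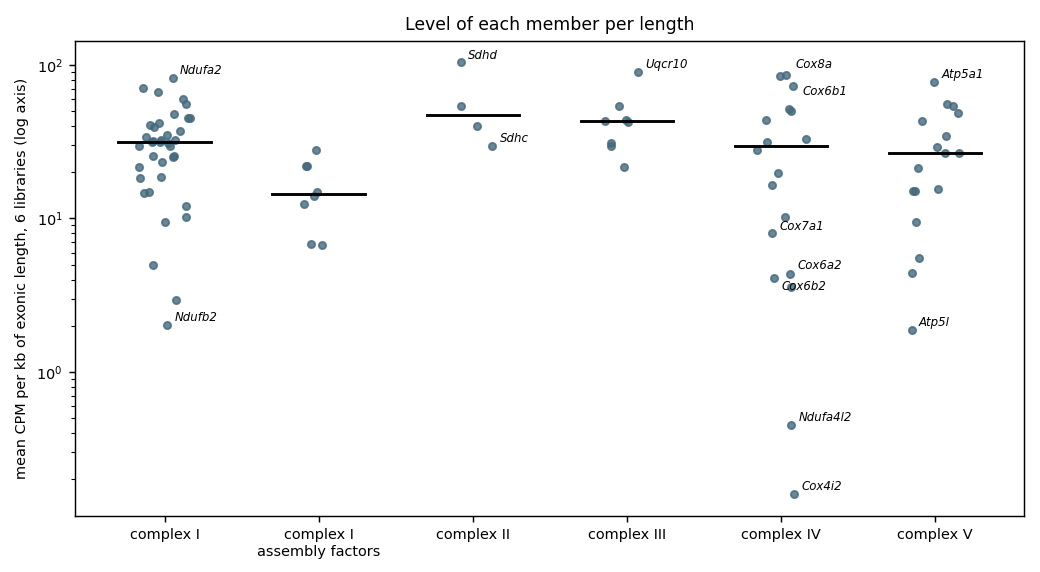
Mean level of each member over the 6 libraries in CPM per kb of exonic length (log axis), by complex, with 1 point per gene and a black line at the median of the tested members. Most subunits lie between 10 and 100 CPM per kb, *Sdhd* is highest at 104, and *Cox4i2* and *Ndufa4l2* fall below 1.

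No member was called different between sEH-/- and wild-type macrophages. A gene was called at a Benjamini-Hochberg adjusted p below 0.05 over all 13785 tested genes (edgeR's quasi-likelihood test) together with a log2 fold change beyond ±0.585, which is 1.5-fold. Across the whole table, 360 genes (208 higher and 152 lower) met this rule, which is 2.61% of those tested, against 0 of 90 members. With no fold threshold, 553 genes or 4.01% passed, again with 0 members by edgeR, DESeq2 or limma-voom. An unadjusted p below 0.05 was reached by 23.4% of all genes and by 2 members with each of these 3 tools. That number of members ranged from 1 to 3 in the alternative analyses, except that it was 11 without sEH-/- replicate 1. The genotypes did not overlap (all 3 libraries of one above all 3 of the other, in CPM) in 26.3% of all tested genes and in 3.33% of the 90 tested members, namely in *Ndufb8*, *Cox6b2* and *Atp5md*. Of the untested members, *Ndufa4l2* did not overlap either. Among all genes with 0.1 to 0.2 counts per exonic base, a range that holds the median member (0.154), the share without overlap was 28.0%. It was 20.4% at 0.2 to 0.4 and 5.24% at 0.4 to 1 counts per base. Among the ribosomal proteins tested it was 8.60% for the 93 cytosolic and 19.5% for the 77 mitochondrial ones.

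The intervals say how large a difference in counts the libraries leave room for. Counts of the members rose less than library totals did, as given further below. The median fold change refitted with library size as a covariate is also given there. The effect on the intervals was not tested. In 82 of the 90 tested members the 95% confidence interval of the fold change lay wholly within 1.5-fold in either direction, among them 43 of 45 genes of complex I, all 4 of complex II, all 8 of complex III, 12 of 16 of complex IV and 15 of 17 of complex V. The exceptions were *Ndufb4*, *Ndufaf7*, *Cox5b-ps*, *Cox6a2*, *Cox6b2*, *Cox7a1*, *Atp5g2* and *Atp5l*. An interval wholly within 1.5-fold was found in 8410 of all 13785 tested genes. At 0.1 to 0.2 counts per exonic base it was found in 2561 of 2775. The median log2 fold change was 0.033 over all tested members and −0.00092 over all tested genes, with 65 members above 0 and 25 below. It was 0.032 in complex I, −0.011 in complex II, −0.0025 in complex III, 0.038 in complex IV and 0.067 in complex V. Mitochondrial ribosomal proteins (77 tested) had a median of −0.035 and cytosolic ribosomal proteins (93 tested) one of 0.087.

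**Figure D2:**
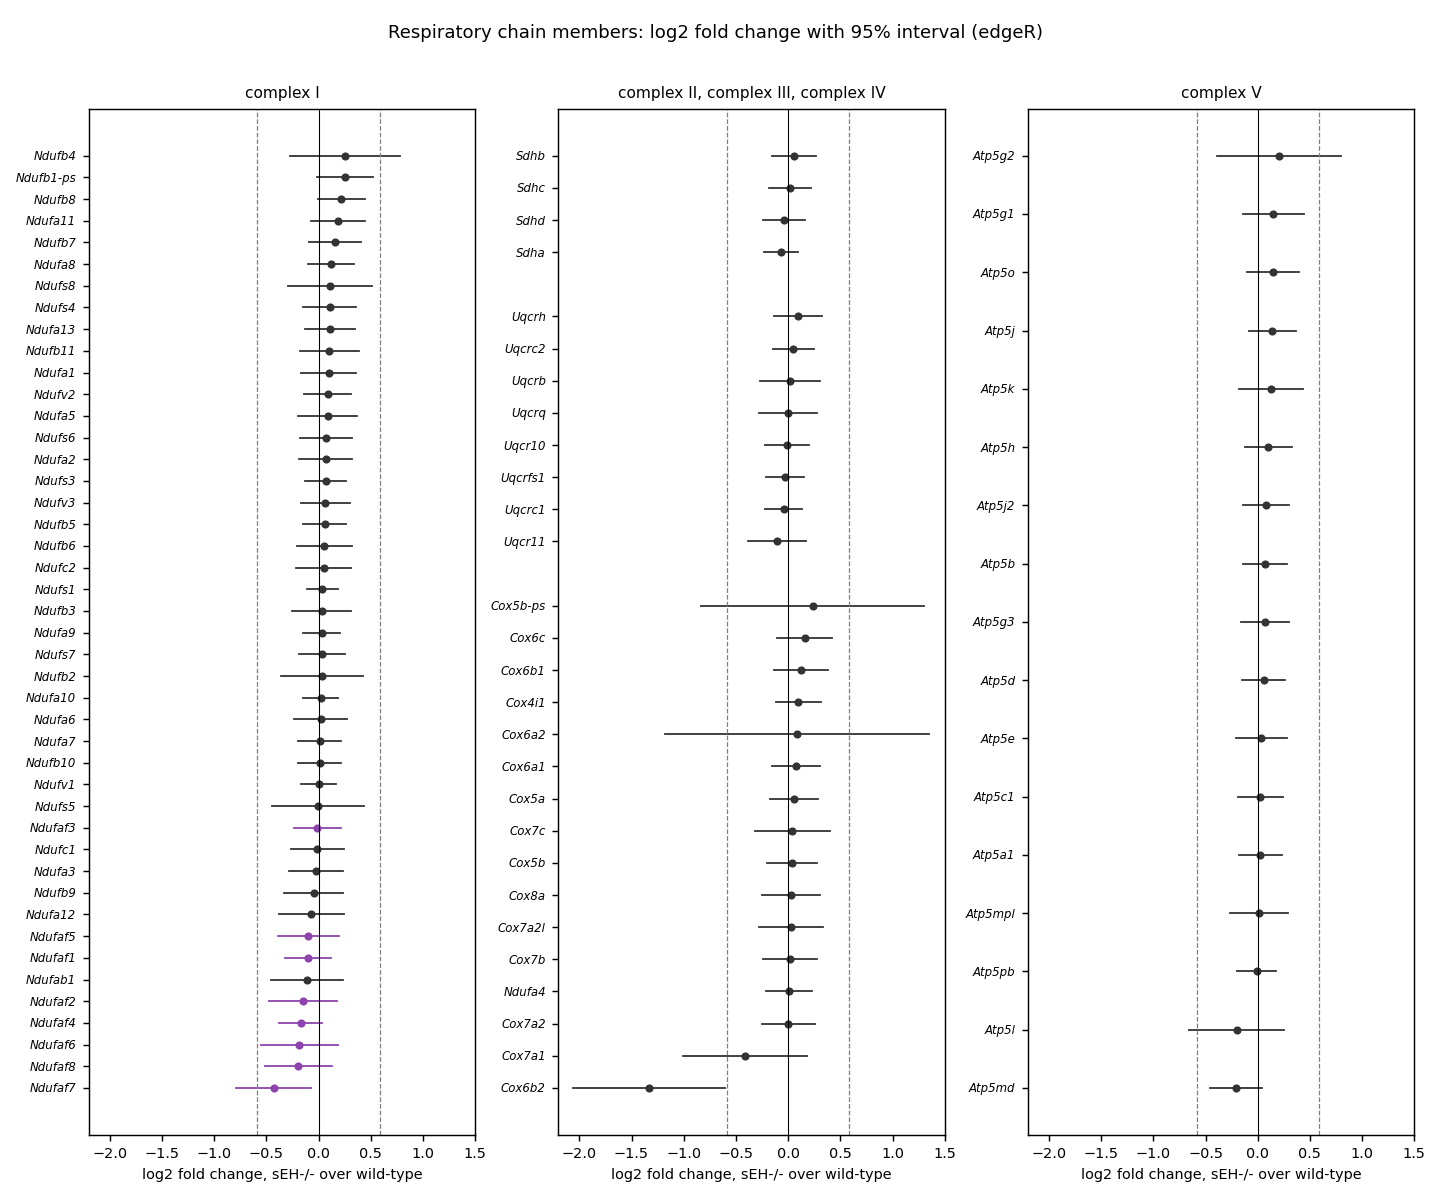
Log2 fold change (sEH-/- over wild-type, x axis) of the tested members, 1 of which is not drawn, each with its 95% interval from edgeR, by complex, with dashed lines at 1.5-fold in either direction and assembly factors in purple. The points gather around 0 and most intervals stay between the dashed lines, whereas *Cox6b2* lies at −1.33.

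Complex I, the NADH dehydrogenase, was near even between the genotypes. All 7 core subunits, which include the carriers of the flavin and of the iron-sulfur clusters, had estimates above 0, although none passed the test, and they spanned only 0.00028 to 0.11 on the log2 scale. *Ndufv1*, the flavin-binding subunit, was counted 491, 453 and 397 times in sEH-/- and 410, 516 and 521 times in wild-type macrophages. Its log2 fold change of 0.00028 had an interval of −0.17 to 0.17. *Ndufs1*, the largest iron-sulfur subunit, gave 690, 592 and 543 against 560, 703 and 658 counts, with overlapping genotypes (log2 fold change 0.033, SE 0.067, adjusted p = 0.81). These 2 core subunits were named after their values had been seen.

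Of the 30 accessory subunits of complex I, 24 lay above 0 and 6 below, and none passed the test. *Ndufb8*, a subunit of the membrane arm whose protein is often used as a marker of assembled complex I, had 274, 259 and 211 counts in sEH-/- and 202, 234 and 252 in wild-type. After scaling by library size these were 46.9, 52.3 and 48.9 CPM against 44.4, 38.0 and 45.2 CPM. Every sEH-/- library was thus above every wild-type library, but the difference was small (log2 fold change 0.22, SE 0.10, adjusted p = 0.23). *Ndufb1-ps*, listed as protein-coding despite its pseudogene suffix, had 191, 203 and 166 against 151, 178 and 179 counts (log2 fold change 0.25, SE 0.12, adjusted p = 0.24). The accessory subunits with most counts per exonic base, *Ndufa2* and *Ndufa1*, had log2 fold changes of 0.068 (SE 0.12) and 0.097 (SE 0.12). *Ndufa2* was counted 245, 243 and 236 times in sEH-/- and 206, 263 and 281 times in wild-type, and *Ndufa1* 160, 155 and 145 against 132, 168 and 166 times. In both genes the genotypes overlapped.

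The assembly factors of complex I lay on the other side of 0. All 8 *Ndufaf* genes had estimates below 0, from −0.43 to −0.010 with a median of −0.16 on the log2 scale, and none passed the test. *Ndufaf7*, a methyltransferase that acts during assembly of the complex, was counted 120, 82 and 100 times in sEH-/- and 102, 180 and 162 times in wild-type. These were 20.5, 16.5 and 23.2 CPM against 22.4, 29.2 and 29.0 CPM, so that the highest sEH-/- library exceeded the lowest wild-type library. The log2 fold change was −0.43 with SE 0.16, an interval of −0.79 to −0.068 and an adjusted p of 0.15. *Ndufaf4*, an early assembly factor, had 268, 216 and 201 against 210, 331 and 295 counts (log2 fold change −0.17, SE 0.093, adjusted p = 0.30) and was named after its values had been seen. Relative to the wild-type mean, the median of the 8 factors was −0.10, −0.15 and −0.14 in sEH-/- replicates 1 to 3 and −0.13, 0.0027 and 0.13 in the wild-type replicates. One wild-type library was therefore as low as the sEH-/- libraries. The 8 estimates remained below 0 with DESeq2, limma-voom and library size as a covariate, and 7 of 8 did so without sEH-/- replicate 1, sEH-/- replicate 2 or wild-type replicate 3. Across all tested genes with a similar coverage of 0.05 to 0.1 counts per base, 1669 of 3060 estimates were below 0, with a median of −0.020.

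Complex II, succinate dehydrogenase, is the only complex of the chain that is wholly nuclear-encoded, and the estimates of its 4 subunits lay between −0.067 and 0.060. *Sdha*, the flavoprotein that oxidizes succinate, was counted 1196, 1091 and 994 times in sEH-/- and 1063, 1370 and 1283 times in wild-type macrophages. At 218 ± 13.0 against 229 ± 5.82 CPM (mean ± SD, n = 3 each), its log2 fold change of −0.067 had an interval of −0.23 to 0.094 (adjusted p = 0.63). *Sdhb*, the iron-sulfur subunit, had 467, 463 and 437 against 419, 506 and 495 counts, and a log2 fold change of 0.060 (interval −0.15 to 0.27). The genotypes overlapped in both genes. The membrane anchors did likewise. *Sdhc* had 511, 509 and 441 against 470, 539 and 547 counts, and its log2 fold change was 0.018 (interval −0.18 to 0.22). *Sdhd* had 663, 645 and 588 against 638, 730 and 735 counts, and its log2 fold change was −0.040 (interval −0.24 to 0.16). A difference of 1.5-fold in the counts of any of the 4 subunits, in either direction, lies outside these intervals, with the limit given above.

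Complex III, which hands electrons from ubiquinol to cytochrome c, had 4 estimates above 0 and 4 below, between −0.11 and 0.093. *Uqcrfs1*, the Rieske iron-sulfur protein at its catalytic core, had 394, 384 and 317 counts in sEH-/- and 358, 438 and 409 in wild-type (log2 fold change −0.030, SE 0.083). *Uqcrc2*, a core structural subunit, had 568, 559 and 525 against 493, 634 and 606 counts (log2 fold change 0.049, SE 0.087). Neither separated the genotypes. Of the small subunits, *Uqcrh*, the hinge protein near the cytochrome c docking site, had 287, 269 and 271 against 241, 302 and 298 counts (log2 fold change 0.093, SE 0.10), *Uqcr11* 145, 144 and 115 against 144, 164 and 160 counts (−0.11, SE 0.12) and *Uqcr10* 280, 263 and 246 against 251, 305 and 301 counts (−0.0076, SE 0.095). Their adjusted p lay between 0.64 and 0.97. Cytochrome c1, encoded by *Cyc1*, belongs to complex III but its symbol is not matched by the rule. It was counted 559, 515 and 481 times in sEH-/- and 495, 614 and 628 times in wild-type macrophages (log2 fold change −0.047, SE 0.081, adjusted p = 0.78).

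Complex IV, cytochrome c oxidase, held the one member near the threshold. *Cox6b2*, the isoform of subunit 6b known from testis, was counted 13, 13 and 13 times in sEH-/- and 19, 53 and 37 times in wild-type macrophages. These were 2.22, 2.62 and 3.01 CPM against 4.18, 8.60 and 6.63 CPM, with no overlap between the genotypes. The log2 fold change was −1.33 with SE 0.33, an interval of −2.06 to −0.61 and an adjusted p of 0.051, so the gene missed the threshold. In 17 alternative analyses its log2 fold change ranged from −1.55 to −1.07 and its adjusted p from 0.020 to 0.24 (0.48 in a test against the fold threshold itself), and it was called in 6 of them. The adjusted p of 0.24 was that without wild-type replicate 2, the library with 53 counts. *Cox6b2* (ENSMUSG00000051811) lies on the minus strand of chromosome 7 of mm10 from 4751792 to 4753094. It overlaps no other gene with a row in the table and shares 0% of its 50-base stretches with other transcripts.

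*Cox6b1*, the ubiquitous isoform of the same subunit, which helps to hold the oxidase dimer together, was counted 273, 279 and 257 times in sEH-/- and 253, 280 and 268 times in wild-type, with full overlap (log2 fold change 0.12, SE 0.12, adjusted p = 0.57). It was the dominant form in both genotypes, with 73.4 CPM per kb against 4.10 CPM per kb for *Cox6b2*. Its counts exceeded those of *Cox6b2* 21.0, 21.5 and 19.8 times in sEH-/- and 13.3, 5.28 and 7.24 times in wild-type macrophages. The pair encodes the same subunit at different levels, and the 250 bases before the annotated start of each gene (RefSeq, GRCm38.p6) are shown from 5′ to 3′ on the minus strand, with CCAAT or its reverse complement ATTGG, the letters of a common promoter element, in capitals. The windows are chr7:30626115-30626364 for *Cox6b1* and chr7:4753095-4753344 for *Cox6b2*.
Cox6b1: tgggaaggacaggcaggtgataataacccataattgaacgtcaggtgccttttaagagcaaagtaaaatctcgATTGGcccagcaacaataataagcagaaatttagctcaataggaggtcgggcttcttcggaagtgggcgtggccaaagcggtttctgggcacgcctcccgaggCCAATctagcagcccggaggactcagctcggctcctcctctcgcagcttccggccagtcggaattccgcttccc
Cox6b2: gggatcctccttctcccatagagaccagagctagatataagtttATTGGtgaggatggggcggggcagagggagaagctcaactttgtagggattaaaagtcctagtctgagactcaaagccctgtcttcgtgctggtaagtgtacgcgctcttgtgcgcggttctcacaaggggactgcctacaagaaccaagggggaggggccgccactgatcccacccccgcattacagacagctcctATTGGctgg
Each window held 2 such matches, a motif chosen after the data had been seen. Over all 27025 genes with a promoter in the table, 37.5% held at least 1, and over the 75 members with a promoter 44%.

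In the other isoform pairs of complex IV the ubiquitous form likewise had the higher level, and no gene was called. *Cox7a1*, the heart- and muscle-type isoform of subunit 7a, had 21, 21 and 14 counts in sEH-/- and 19, 36 and 26 in wild-type (log2 fold change −0.41, SE 0.27, adjusted p = 0.40), while the liver-type *Cox7a2* had 237, 248 and 224 against 230, 267 and 269 counts (0.0016, SE 0.11). *Cox7a2l*, a related factor that promotes supercomplexes, had 218, 236 and 248 against 217, 278 and 257 counts (0.027, SE 0.14). The muscle-type *Cox6a2* was counted 3, 26 and 15 times in sEH-/- and 11, 18 and 17 times in wild-type, so that the sEH-/- libraries enclosed the wild-type ones and the interval of −1.18 to 1.35 is wide. *Cox6a1*, its ubiquitous partner, had 322, 301 and 292 against 289, 323 and 326 counts (log2 fold change 0.073, SE 0.10). *Cox4i1* had 419, 430 and 392 against 372, 447 and 437 counts (0.097, SE 0.099), and reached 51.8 CPM per kb compared with 0.160 for *Cox4i2*. *Ndufa4* had 217, 195 and 168 against 187, 217 and 216 counts (0.0074, SE 0.10).

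**Figure D3:**
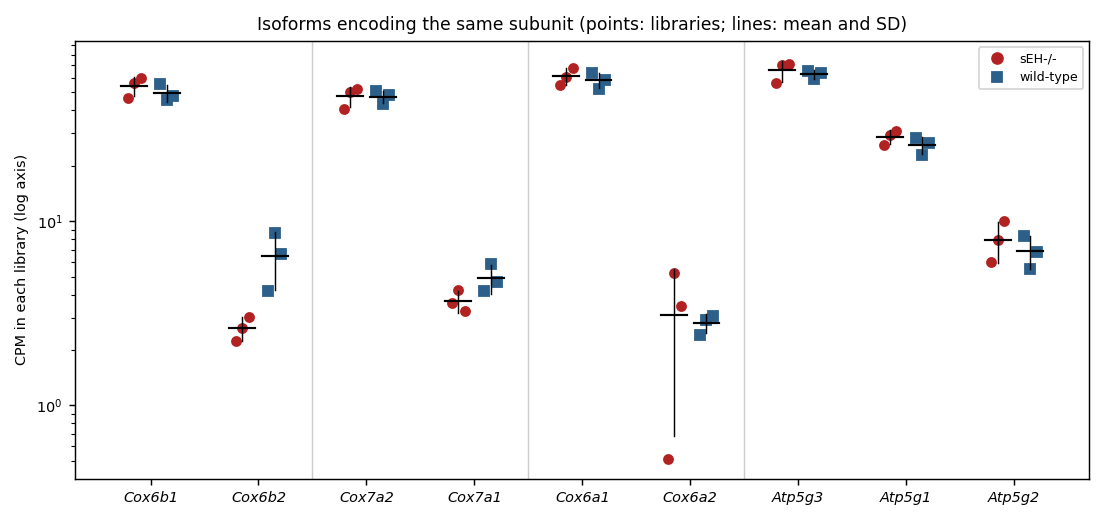
CPM in each library (log axis) for isoforms that encode the same subunit, with circles for the 3 sEH-/- and squares for the 3 wild-type libraries, and black lines for the mean and SD. *Cox6b2* is the only gene shown whose genotypes do not overlap, at 2.22 to 3.01 CPM against 4.18 to 8.60 CPM, and it stays far under *Cox6b1*.

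Among the remaining complex IV genes, 14 of the 16 tested in this complex had estimates above 0 and only *Cox6b2* and *Cox7a1* lay below. The 14 include *Cox5b-ps*, listed as protein-coding despite its pseudogene suffix, which shares 61.9% of its 50-base stretches with *Cox5b*. *Cox8a*, a small subunit at 86.6 CPM per kb, was counted 269, 274 and 263 times in sEH-/- and 275, 288 and 290 times in wild-type (log2 fold change 0.027, SE 0.13). *Cox6c* had 199, 191 and 188 against 170, 207 and 184 counts (0.16, SE 0.12, adjusted p = 0.46). Neither gene separated the genotypes.

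Complex V, ATP synthase, had 14 estimates above 0 and 3 below, and no call. *Atp5a1* and *Atp5b*, the subunits that form the catalytic head, were the members with most counts. *Atp5a1* was counted 1269, 1234 and 1173 times in sEH-/- and 1168, 1422 and 1325 times in wild-type (log2 fold change 0.025, SE 0.092), and *Atp5b* 1294, 1211 and 1135 against 1171, 1306 and 1256 times (0.070, SE 0.094). *Atp5o*, which links head and stalk, and *Atp5j*, a coupling factor of the stalk, both had log2 fold changes of 0.14 (SE 0.11 and 0.10). *Atp5o* had 175, 172 and 138 against 134, 170 and 170 counts, and *Atp5j* 262, 260 and 217 against 220, 250 and 252. These genotypes overlapped.

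*Atp5md*, a small membrane subunit of the ATP synthase dimer, went the other way. It was counted 143, 118 and 107 times in sEH-/- and 125, 173 and 162 times in wild-type, which were 24.5, 23.8 and 24.8 CPM against 27.5, 28.1 and 29.0 CPM. The genotypes did not overlap, and the difference missed the test (log2 fold change −0.21, SE 0.11, adjusted p = 0.29). The gene overlaps *Taf5* on the opposite strand, and counting was stranded. Subunit c of the rotor ring is encoded by 3 genes with the same mature protein, and *Atp5g3* was the main one at 29.4 CPM per kb, followed by *Atp5g1* at 5.56 and *Atp5g2* at 4.43. Summed over the 3 genes, subunit c was counted 514, 532 and 483 times in sEH-/- and 464, 538 and 542 times in wild-type. Their log2 fold changes were 0.067, 0.15 and 0.20 in that order, with the interval of *Atp5g2* reaching from −0.39 to 0.80. *Atpif1*, the inhibitor of ATP synthase, whose symbol is outside the rule, had a log2 fold change of 0.0034 (SE 0.12).

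The members' levels differed between libraries of one genotype. Relative to the wild-type mean, the median member stood at −0.13, 0.082 and 0.15 on the log2 scale in sEH-/- replicates 1 to 3, and at 0.050, −0.077 and 0.028 in the wild-type replicates. The lowest of these values belong to the libraries with most counts (sEH-/- replicate 1 and wild-type replicate 2) and the highest to the smallest library (sEH-/- replicate 3). The median of all genes, which the scaling of the libraries keeps near 0, stayed between −0.011 and 0.0042 in every library. Cytosolic ribosomal proteins stood at −0.14, 0.14 and 0.24 in sEH-/- replicates 1 to 3 and at 0.044, −0.060 and 0.0023 in wild-type. All genes at 0.4 to 1 counts per exonic base stood at −0.088, 0.12 and 0.22 against 0.14, −0.12 and −0.024. The ordering was thus not limited to the members. Mitochondrial ribosomal proteins stood at −0.070, 0.017 and −0.044 against −0.023, −0.042 and 0.061. Summed over all members, the level was 4453, 5115 and 5319 CPM in sEH-/- and 5039, 4594 and 4931 CPM in wild-type, and the genotypes overlapped in full.

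**Figure D4:**
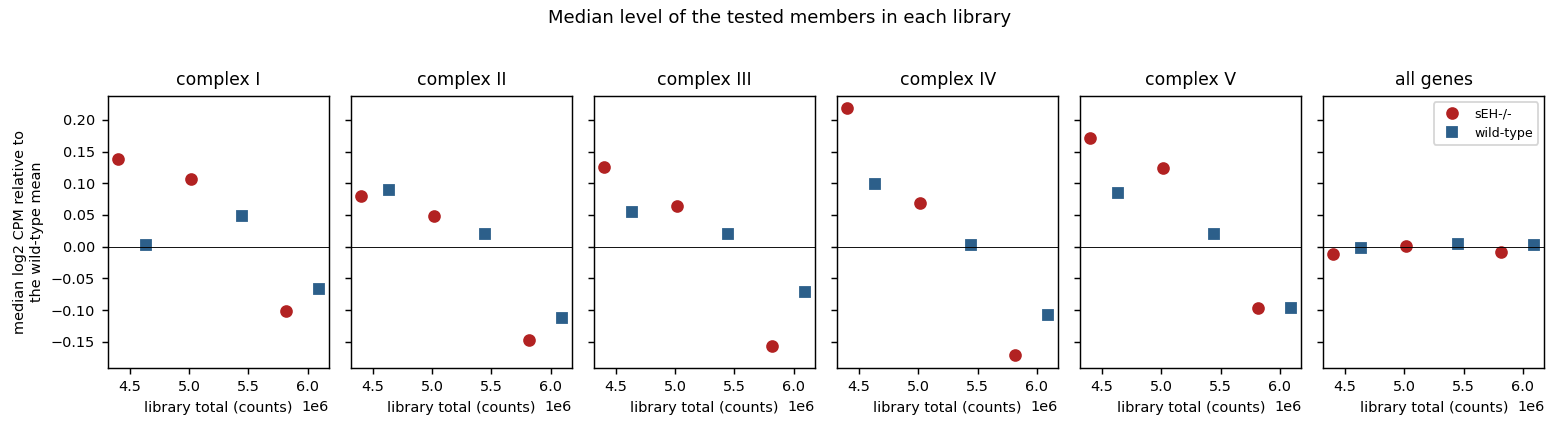
Median log2 CPM of the tested members of each complex and of all tested genes, relative to the wild-type mean (y axis), against the total of the library in counts (x axis), with circles for sEH-/- and squares for wild-type. In every complex the largest libraries of both genotypes lie lowest. The panel of all genes, whose median the scaling keeps near 0, is flat.

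Raw counts of the members rose less than library totals did. From the smallest to the largest library the total grew 1.39-fold, and the median slope of log2 count on log2 total was 0.556 over the 90 members, compared with 1.15 over all tested genes. A slope below 0.5 was seen in 30 members, from 0.5 to 1 in 46 and of at least 1 in 14, whereas 1842 of all 13785 genes were below 0.5. Complex IV had a median slope of 0.387 and the *Ndufaf* factors one of 1.44. *Cox8a*, for example, varied only 1.10-fold from its lowest to its highest count. Among all genes the slope fell with coverage, from 1.03 at 0.1 to 0.2 counts per exonic base to 0.746 at 0.2 to 0.4 and 0.389 at 0.4 to 1, and the members reached 0.541 counts per base. The 60 tested members under 0.2 counts per base (median 0.112) had a median slope of 0.654, and the 30 others one of 0.516. Cytosolic ribosomal proteins had a slope of 0.460 at a median of 0.1025 counts per base, and mitochondrial ones 1.054 at 0.1026. The authors counted reads after removing duplicates, and the part of that step in these slopes was not tested. When library size (its log) entered the fit as a covariate, the median log2 fold change of the members was −0.0076, with 41 above 0 and 49 below. It was 0.13 without sEH-/- replicate 1, −0.013 without sEH-/- replicate 3 and −0.0025 without wild-type replicate 2. The direction of the median therefore depended on which libraries were used.

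The other lists of oxidative metabolism held no called gene, at list sizes where the share of 2.61% over all genes leaves room for few. The genotypes did not overlap in 30.0% of the electron carriers, 23.9% of the assembly factors outside the rule and 22.2% of the Krebs cycle genes, near the 26.3% over all tested genes. The share was 14.3% both in the 14 tested regulators of mitochondrial gene expression and in the 7 tested genes of exchange and uncoupling. Of the 20 electron carrier genes (cytochrome c, ubiquinone synthesis, electron-transferring flavoproteins and dehydrogenases that reduce ubiquinone), 0 were called and 10 lay on each side of 0. The lowest p belonged to *Coq5*, a methyltransferase of ubiquinone synthesis, with 387, 347 and 283 counts in sEH-/- and 349, 491 and 438 in wild-type (log2 fold change −0.22, SE 0.072, adjusted p = 0.10). Assembly factors outside the rule gave 0 calls among 46 tested of 48, with 24 above 0 and 22 below. *Sdhaf1*, which inserts iron-sulfur clusters into *Sdhb*, had 164, 126 and 148 against 162, 273 and 261 counts, did not overlap in CPM and missed the threshold (log2 fold change −0.54, SE 0.14, adjusted p = 0.059; called in 2 of the 17 alternatives).

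Krebs cycle genes gave 0 calls among 18, with 6 above 0 and 12 below. *Pcx*, pyruvate carboxylase, which refills the cycle with oxaloacetate, was counted 117, 61 and 129 times in sEH-/- and 146, 348 and 245 times in wild-type (log2 fold change −1.12, SE 0.28, adjusted p = 0.051). It was called in 6 of the 17 alternatives, with an adjusted p of 0.0013 in DESeq2 and of 0.23 without wild-type replicate 2. Of 14 tested regulators of mitochondrial gene expression, 4 lay above 0 and 10 below, and 1 passed the adjusted p with no fold threshold. This was *Gabpb1*, a subunit of the GA-binding protein that activates many respiratory genes, with 264, 201 and 183 against 236, 438 and 374 counts. It was lower in sEH-/- macrophages, in 3 of 3 libraries in CPM, by an amount just short of 1.5-fold (log2 fold change −0.57, SE 0.12, adjusted p = 0.033). Its adjusted p was 0.11 without sEH-/- replicate 2 and 0.17 or 0.16 when wild-type replicate 2 or 3 was left out. The 7 tested genes of nucleotide exchange and uncoupling all lay above 0 by at most 0.16, with *Ucp2*, an uncoupling protein of immune cells, at 1383, 1415 and 1319 against 1290, 1343 and 1338 counts (adjusted p = 0.46).

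**Figure D5:**
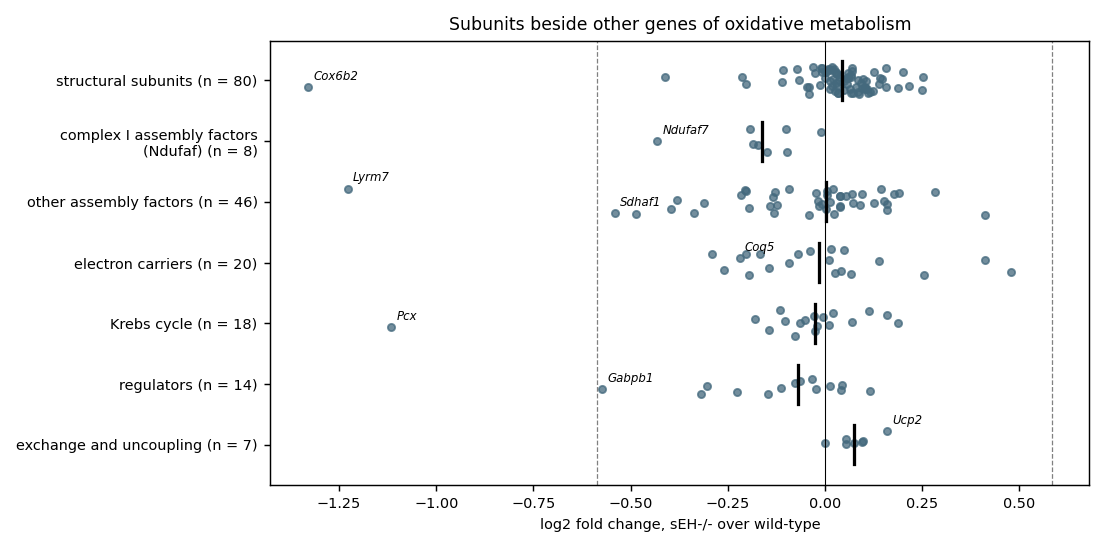
Log2 fold change (sEH-/- over wild-type, x axis) of each tested gene in 7 lists of oxidative metabolism, with 1 point per gene, a black line at the median of the list and dashed lines at 1.5-fold in either direction. The 80 structural subunits gather around a median of 0.044, with *Cox6b2* at −1.33 and *Cox7a1* at −0.41 the lowest, and the 8 *Ndufaf* factors lie wholly below 0.

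Nuclear respiratory genes are known to share binding sites for the factors NRF1, YY1, ERR and GABP, and the members' promoters were read for their letters, a property that neither the rule nor the counts had used. Promoters (250 bases before to 50 after the annotated start, RefSeq, GRCm38.p6) were at hand for 75 of the 92 members. The NRF1 letters GCGCATGCG, searched on both strands, were in 10 of the 75 members (13.3%) and in 1.95% of all 27025 genes. The YY1 letters AAGATGGCG were in 8 members (10.7%) and in 1.64% of all genes. The ERR letters TCAAGGTCA were in 2 members, *Atp5g3* and *Sdhd* (2.67% against 0.466%), and the ETS letters CCGGAAGTG of GABP in 2 members, *Ndufs3* and *Uqcrh* (2.67% against 2.25%). In all, 22 members held at least 1 of the 4 motifs. Member promoters were also richer in G and C, with a median of 58.8% compared with 52.7% over all promoters. All 8 YY1 members belonged to complex I or V. Of the NRF1 and YY1 matches, 4 examples of each are given with their neighbouring bases and the match in capitals, including overlapping matches on both strands. For NRF1 they are *Ndufa11* (chr17:56717692-56717720, plus strand), *Cox6a1* (chr5:115349102-115349130, minus), *Atp5k* (chr5:108434431-108434459, minus) and *Ndufaf4* (chr4:24897960-24897988, plus).
Ndufa11: cctgcactgcGCGCATGCGCgcacgcctt
Cox6a1: caggaacgggGCGCATGCGCgctctcgct
Atp5k: tttcactgcgGCGCATGCGCctttctggc
Ndufaf4: ccagatgtctGCGCATGCGCctgtgcgga
For YY1 they are *Ndufs7* (chr10:80249463-80249491, plus strand), *Ndufa9* (chr6:126849097-126849125, minus), *Ndufc1* (chr3:51408915-51408943, minus) and *Atp5j* (chr16:84835046-84835074, minus).
Ndufs7: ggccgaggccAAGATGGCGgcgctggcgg
Ndufa9: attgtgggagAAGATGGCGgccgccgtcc
Ndufc1: cctgcggaacAAGATGGCGccgtccgtag
Atp5j: aagtgtaggaAAGATGGCGgagtcttagc
In 7 of the 8 members with YY1 letters the match began 11 to 36 bases after the start. The YY1 letters contain ATG, and their place relative to the start of translation was not tested. The 27025 genes were not limited to those expressed here. The 10 NRF1 members lay between −0.20 and 0.20 with 5 on each side of 0, and the 8 YY1 members between −0.19 and 0.14 with 6 above 0. None of these genes passed the test. A match of letters is a description of the sequence and not of a bound site.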

How the data were processed

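Macrophage RNA of 6 mice, 3 per genotype, was sequenced. The deposited table holds raw, unnormalized counts per gene. According to the methods, the authors trimmed reads and aligned them to mm10. The submitters' processing notes name Trimmomatic 0.39, STAR 2.7.7a, Picard 2.21.7 and featureCounts 1.6.5, whereas the methods give other versions of the last 3. They discarded duplicates and reads that were mitochondrial, ribosomal or multi-mapping, and counted the rest over exons by strand, without reads over several genes. The labels name a stranded mRNA kit and the methods a total RNA kit.

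Counts were tested with edgeR 4.0.16 in R 4.3.3 (TMM, quasi-likelihood test, no covariate) for the 13785 genes with a mean above 5 counts, and p-values were adjusted over all of them. SE was derived from the F statistic. Exonic lengths came from the annotation of the same build. Library totals of 4400197 to 6096440 counts limit precision, with a common biological coefficient of variation of 0.0866. Scripts were tested on simulated data. Chi-square per degree of freedom between same-genotype libraries was 2.27 to 4.91, above sampling noise. Alternatives were DESeq2 1.42.0, limma-voom 3.58.1, other scalings, filters, covariates and left-out libraries. Genes were named by a rule: *Sdha* to *Sdhd*, called members, in each complex the 3 lowest p and the 2 highest counts per base, isoforms, *Ephx2*, *Cyc1*, *Atpif1* and, per pathway list, the lowest p. Members and lists were chosen with earlier results of these data known. The values of 1 member are included in all counts and fits but are not reported here.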

Additional observations from a re-analysis of the deposited data

How the results depend on the processing

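No member changed direction while called, and 1 member in all, *Cox6b2*, was called in any of the 17 alternatives. That count of 1, for calls as for adjusted p alone, arose with library totals, no filter, filterByExpr, at least 10 counts in every library, and counts adjusted to allow for at most 1 count per exonic base (chosen after seeing the data), and was 0 to 1 when each library was left out (1 without wild-type replicate 1). The cause was not tested. The members' median stayed between −0.013 and 0.13 and moved by less than the spread between libraries. Of 746 values of named genes, 729 kept their side of the threshold, and the rest became calls (*Cox6b2* 6, *Pcx* 6, *Gabpb1* 3 and *Sdhaf1* 2 times). Uncalled named genes changed sign 58 times.

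Calls over the whole table depended more on the analysis. Against 360 genes (208 higher, 152 lower), there were 171 (121 and 50) with log library size as a covariate and 10 (7 and 3) in a test against the fold threshold itself, and without a filter 240 were lower. Leaving out each library gave 6 to 625 calls (4 to 346 higher, 2 to 312 lower), with 625, 25 and 6 when wild-type replicate 1, 2 or 3 was left out, and 518, 96 and 570 for sEH-/- replicates 1, 2 and 3. Sizes near 1.5-fold in genes of under 50 counts, as 7 tested members had, are at the limit of this depth.

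The labels do not state whether the replicate numbers pair the samples. The deviations of same-numbered libraries correlated at −0.082, −0.26 and −0.037, and those of differently numbered libraries at −0.076 to 0.16. With 3 libraries per genotype, these values cannot decide whether samples were paired. With the replicate number as a block, 234 genes were called (85 lower), 0 of them members, *Cox6b2* had an adjusted p of 0.074 and *Gabpb1* one of 0.056.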

Other observations

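The table also holds 12 rows of processed pseudogenes with names derived from respiratory chain genes. Together they had 77, 82 and 72 counts in sEH-/- and 62, 92 and 79 in wild-type macrophages, 464 in all. The largest, *Atp5pb-ps*, was counted 22, 26 and 20 times against 21, 25 and 25 times.

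*Nnt*, the proton-driven transhydrogenase of the inner membrane, was counted 3, 0 and 3 times in sEH-/- and 2, 1 and 2 times in wild-type macrophages, under the limit for testing. It was the only gene of the exchange list that was not tested.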
